A study of Mus musculus with 8 samples.

Results

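The genes described here encode the contractile actin cytoskeleton and proteins tied to it, many of which are known targets of serum response factor (SRF). They are a list of gene names, drawn up with earlier results of these data known: 47 genes of the 55335 gene identifiers in the deposited table, grouped as actins, myosins, tropomyosins with other thin-filament regulators, the calponin family, crosslinkers, focal adhesion and LIM proteins, and 5 others. RNA was sequenced from MC3T3-E1, a widely used cell line of osteoblast precursors from mouse skull bone. Of 8 libraries, 4 came from cells kept 3 days with TABS, the Trio-Active bone scaffold, and 4 from cells kept as long with HA, also called HA/Mg, which is hydroxyapatite doped with magnesium. No genotype, drug or other agent is named for either group, the sources used here do not say what TABS consists of, and no library came from cells without a scaffold, so every direction below is TABS relative to HA. The libraries carry the letter H where the sample is titled TABS and L where it is titled HA. The letters do not spell the group names, and no gene measured here can check which scaffold a library saw. MC3T3-E1 is 1 cell line, and the labels do not say whether the 4 libraries of a group stand for separate cultures. Each p-value therefore weighs the difference between the groups against the scatter of these libraries, and that scatter may be technical.

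Non-muscle cells pull on their surroundings with bundles of actin filaments and myosin II. Myosin is switched on by phosphorylation of its regulatory light chain, tropomyosins and caldesmon govern where it can bind, and talin, vinculin, paxillin and zyxin couple the bundles to integrins. Unpolymerised actin holds the cofactors MRTF-A and MRTF-B in the cytoplasm. When actin polymerises they enter the nucleus and act with SRF on genes that carry CArG boxes, among them many genes for actin and its partners. In osteoblast precursors this machinery is known to respond to the stiffness and shape of the surface on which the cells spread.

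Levels are FPKM, fragments per kilobase of transcript scaled to the library's fragments, and can be compared between genes because they are per length. A difference is the TABS value minus the HA value after taking log2(FPKM + 1), and carries a standard error. The added 1 makes changes of low genes look smaller. A gene was tested when it reached 1 FPKM in at least 4 of the 8 libraries, and it is said to have risen or fallen when the two-sided limma p, adjusted over all 11280 tested genes by the Benjamini-Hochberg method, was under 0.05. Of the 47 genes, 41 were tested and all 41 reached 1 FPKM in each of the 8 libraries. The other 6 (Acta1, Cnn1, Myh11, Des, Fhl1 and Synpo2) stayed under 1 FPKM in every library.

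Acta2 and Actg2, the smooth muscle actins, fell in TABS relative to HA, to 0.613 and 0.568 of their HA levels. Tagln, Myl9, Mylk, Tpm1 and Lmod1, which encode partners of actin and myosin, fell by less, Csrp2 rose, and 33 genes did not pass, among them the cytoplasmic actins and the non-muscle myosin heavy chains. The 7 that fell are 17.1% of the tested members, against 2.90% of all tested genes that fell. The 1 that rose is 2.44%, against 4.49% of all tested genes that rose, and 7.38% of all tested genes passed in either direction. Groups did not overlap, with every TABS library below every HA library, for 10 members, where 7.15% of all tested genes were so placed. Every TABS library lay above every HA library for 5 members, beside 10.8% of all tested genes, and non-overlap in either direction held for 18.0% of all tested genes. The median difference was -0.03 over the 41 members, of which 23 were negative, and 0.01 over all tested genes, of which 48.0% were negative. Only Acta2 and Actg2 fell under each of the 18 alternative settings. RNA came from whole cultures, so fewer cells of a kind and less RNA per cell cannot be told apart.

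**Figure D1:**
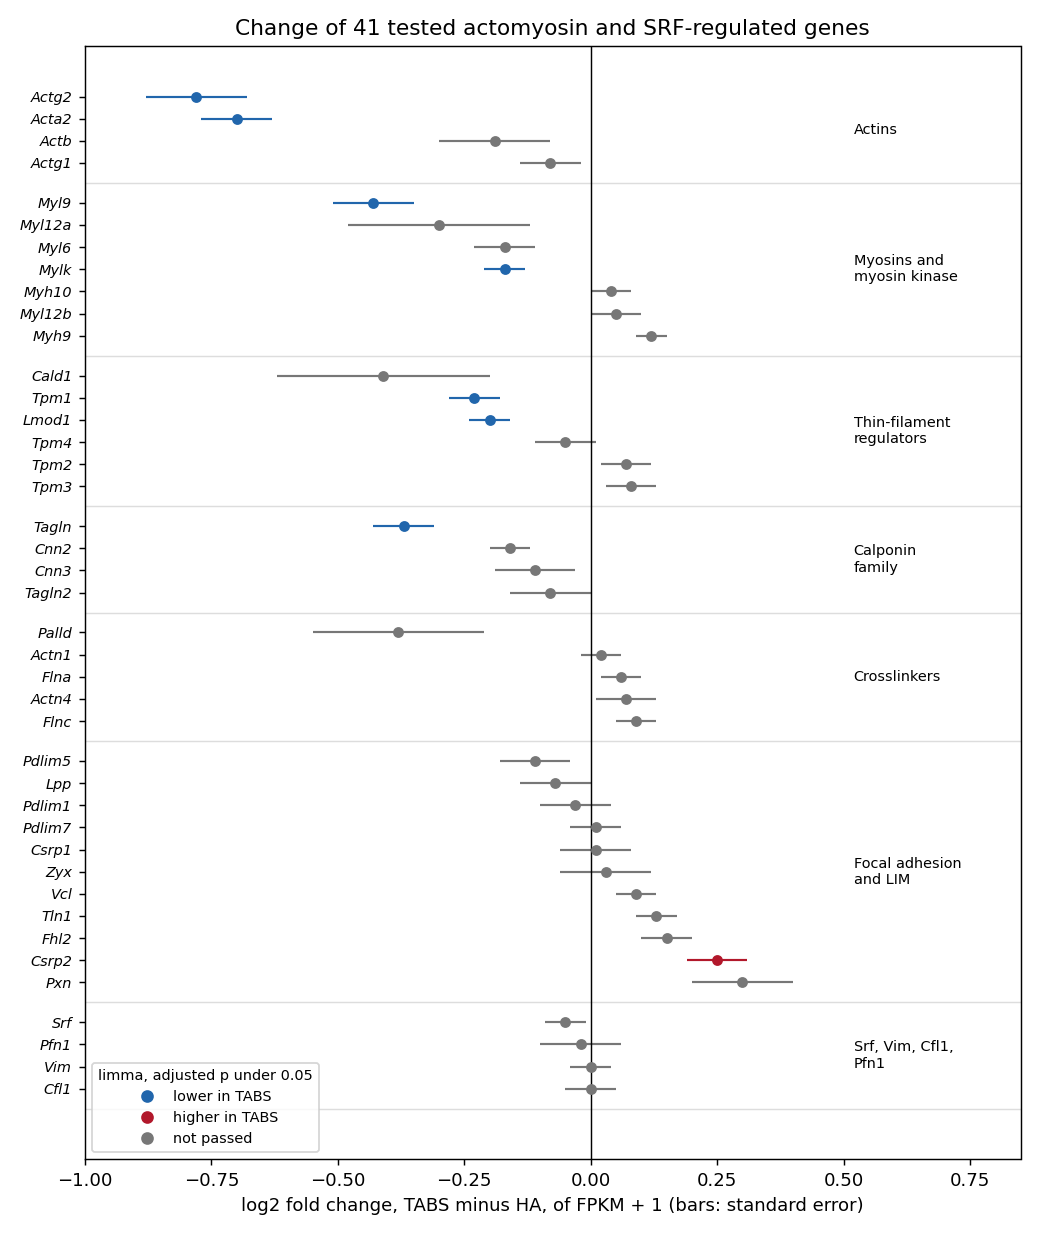
Difference between TABS and HA for the 41 tested genes, on the log2(FPKM + 1) scale, grouped by role; points are limma estimates, bars are standard errors, blue and red mark genes that fell and rose at an adjusted p under 0.05, and grey marks the rest. Actg2 (-0.78) and Acta2 (-0.70) lie farthest below 0, and Csrp2 (0.25) is the gene that passed above it.

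The actins separated by isoform. Acta2 encodes smooth muscle alpha-actin, the actin of stress fibres in smooth muscle and myofibroblasts, and lies on GRCm38 at chr19:34241090-34255590 (ENSMUSG00000035783). Its level was 112, 104, 120 and 127 FPKM in TABS 1 to 4 and 199, 195, 187 and 172 FPKM in HA 1 to 4. The highest TABS library was well below the lowest HA library. The group means were 116 ± 10.1 and 188 ± 12.0 FPKM (SD, n = 4 each), so TABS held 0.613 of the HA level. The difference of -0.70 ± 0.07 had a limma adjusted p of 0.000926, and this fall was number 34 in size among the 11280 tested genes.

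Actg2 encodes smooth muscle gamma-actin, the enteric isoform, and lies at chr6:83512905-83536265 (ENSMUSG00000059430). It was rarer than Acta2 in these cells and moved in the same direction. TABS 1 to 4 held 11.8, 12.6, 15.4 and 16.1 FPKM and HA 1 to 4 held 26.3, 25.0, 24.6 and 22.5 FPKM. The groups did not overlap, and the mean of 14.0 ± 2.09 FPKM in TABS was 0.568 of the 24.6 ± 1.58 FPKM in HA. The difference was -0.78 ± 0.10 with a limma adjusted p of 0.00212, number 25 in size among falls.

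The cytoplasmic actins, which make up the bulk of actin in non-muscle cells, did not pass. Actg1, gamma-cytoplasmic actin, was the most abundant member, with 746, 762, 762 and 809 FPKM in TABS 1 to 4 and 800, 785, 793 and 887 FPKM in HA 1 to 4. Its groups overlapped, and the difference was -0.08 ± 0.06 (limma adjusted p = 0.395). Actb, beta-actin, had 391, 393, 407 and 293 FPKM in TABS and 412, 475, 415 and 386 FPKM in HA. TABS 4 stood below the other 7 libraries, and the difference was -0.19 ± 0.11 (limma adjusted p = 0.314). Without TABS 4 it was -0.08 (limma adjusted p = 0.568). Acta1, skeletal alpha-actin, ranged from 0 to 0.159 FPKM, and Actc1, the cardiac isoform, was listed at 0 in all 8 libraries.

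As a share of the FPKM summed over the 6 actin genes, a quantity within each library that no scaling of libraries changes, Acta2 held 8.85, 8.16, 9.20 and 10.2% in TABS 1 to 4 and 13.9, 13.2, 13.2 and 11.7% in HA 1 to 4. Every TABS share was below every HA share, and the means were 9.10 ± 0.845% and 13.0 ± 0.896% (SD, n = 4 each). Actg2 held 1.10 ± 0.165% in TABS and 1.70 ± 0.125% in HA. Actb held 29.2 ± 3.74% and 29.1 ± 2.38%, and Actg1 60.6 ± 2.96% and 56.3 ± 3.07%. The summed actin level was 1270 ± 24.9 FPKM in TABS and 1451 ± 27.7 FPKM in HA. Cytoplasmic isoforms thus made up most of the actin RNA on both scaffolds.

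**Figure D2:**
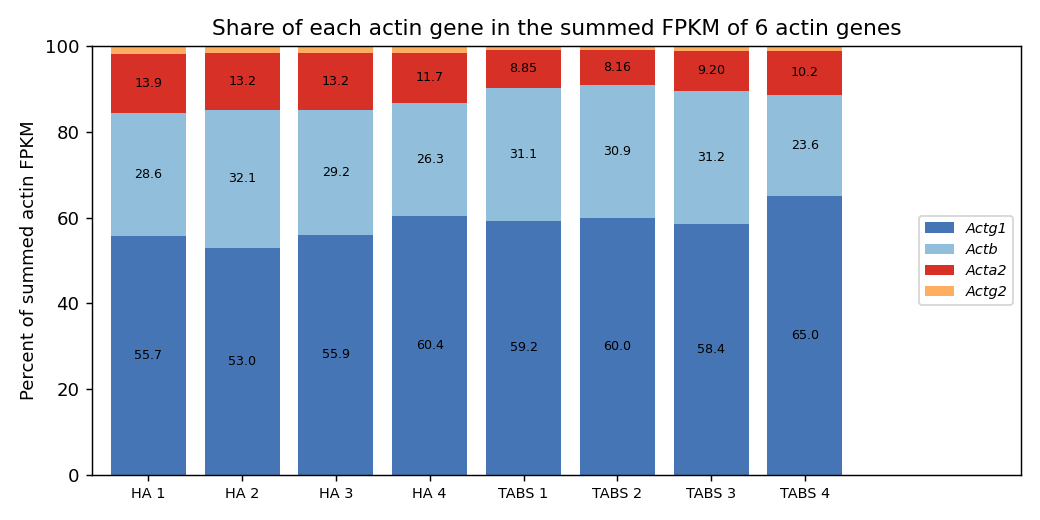
Share (%) of the summed FPKM of the 6 actin genes held by each actin in each of the 8 libraries, as stacked bars with the values of Actg1, Actb and Acta2 printed inside; Acta1 and Actc1 are too low to be seen and are not drawn. The Acta2 share lies between 8.16 and 10.2% in TABS and between 11.7 and 13.9% in HA, while the Actb shares of the groups overlap.

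Actin transcripts have processed copies, and the values of some members are uncertain for that reason. Of the 100-base stretches in Actg1 transcripts, 51.1% also occur in transcripts of another gene, foremost the pseudogene Gm12715, which had 323 ± 5.49 FPKM in TABS and 328 ± 10.7 FPKM in HA (SD, n = 4 each). No stretch of Acta2 or Actg2 was shared with another gene, and 1.1% of those of Actb were. With the FPKM of the Actg1 pseudogenes added to the sum, Acta2 held 7.14% in TABS and 10.4% in HA.

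Among myosin genes, the smooth-muscle type regulatory light chain and its kinase fell and the non-muscle heavy chains did not pass. Myl9, the regulatory light chain shared by smooth muscle and stress fibres, lies at chr2:156775420-156781658 (ENSMUSG00000067818). It was 57.1, 52.6, 52.6 and 57.0 FPKM in TABS 1 to 4 and 82.6, 77.8, 75.8 and 61.9 FPKM in HA 1 to 4. HA 4 was the HA library nearest to TABS, yet the groups did not overlap. The means were 54.8 ± 2.58 and 74.5 ± 8.86 FPKM, a ratio of 0.736, and the difference was -0.43 ± 0.08 (limma adjusted p = 0.0168). The call was lost without TABS 3, at a limma adjusted p of 0.054, and with no filter on low levels (0.0572). Without TABS 2 it just held, at a limma adjusted p that rounds to 0.05.

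Mylk encodes myosin light chain kinase, which phosphorylates Myl9 protein, and lies at chr16:34745210-35002420 (ENSMUSG00000022836). Its level was 14.3, 15.0, 14.3 and 14.2 FPKM in TABS 1 to 4 and 16.1, 15.8, 16.4 and 16.9 FPKM in HA 1 to 4. The gap between the groups was small and every TABS library was below every HA library. The means were 14.4 ± 0.351 and 16.3 ± 0.483 FPKM, and the difference was -0.17 ± 0.04 (limma adjusted p = 0.0362). Leaving out any 1 library other than HA 1 ended this call, with adjusted p up to 0.104, as did rescaling to TPM (0.0765). Without HA 1 the call just held, at a limma adjusted p that rounds to 0.05.

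Myh9, the heavy chain of non-muscle myosin IIA, had 75.4, 76.3, 76.1 and 76.7 FPKM in TABS and 68.2, 71.6, 71.0 and 69.2 FPKM in HA. Its TABS libraries lay above its HA libraries, in the direction opposite to Myl9 and Mylk, but the difference of 0.12 ± 0.03 did not pass (limma adjusted p = 0.0712). After rescaling to TPM the difference was 0.16 and passed (0.0253), and after correction for GC content and length it was 0.03 (0.656). Myh10, the heavy chain of myosin IIB, had 10.9 ± 0.112 FPKM in TABS and 10.6 ± 0.474 FPKM in HA, and did not pass. Myh9 held 87.5 ± 0.0968% of the summed Myh9, Myh10 and Myh11 level in TABS and 86.8 ± 0.663% in HA. Myh11, the smooth muscle heavy chain, was at most 0.0262 FPKM in any library.

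Myl6, the essential light chain that pairs with these heavy chains, had 232 ± 12.4 FPKM in TABS and 260 ± 20.3 FPKM in HA, with overlapping groups (-0.17 ± 0.06, limma adjusted p = 0.154, with 0.0378 after correction for GC content and length and 0.24 after rescaling to TPM). Myl12a and Myl12b are further regulatory light chains with near-identical sequences: 24.5% and 31.4% of their 100-base stretches occur in another gene, and a second Myl12b identifier runs over Myl12a. Myl12a had 86.7, 77.9, 73.7 and 99.8 FPKM in TABS and 93.4, 154, 84.0 and 96.6 FPKM in HA, and HA 2 stood above the rest. In that library the second Myl12b identifier was at 46.0 FPKM, where the others ran from 59.7 to 70.3 FPKM. The 3 identifiers summed to 194 ± 12.5 FPKM in TABS and 204 ± 26.4 FPKM in HA. Neither Myl12a (limma adjusted p = 0.327) nor Myl12b (0.578) passed.

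Of the tropomyosins, which run along the actin filament and set its access to myosin, Tpm1 fell and the other 3 did not pass. Tpm1 lies at chr9:67022590-67049406 (ENSMUSG00000032366). It had 38.8, 43.6, 40.4 and 42.9 FPKM in TABS 1 to 4 and 47.7, 47.8, 52.3 and 47.1 FPKM in HA 1 to 4. The groups were apart, with HA 3 the highest library. The means of 41.4 ± 2.19 and 48.7 ± 2.38 FPKM gave a ratio of 0.85 and a difference of -0.23 ± 0.05 (limma adjusted p = 0.0315). The call was lost without TABS 1, TABS 3, TABS 4, HA 2 or HA 3, with adjusted p up to 0.0874, and with no filter on low levels (0.0664). Tpm2, Tpm3 and Tpm4 had limma adjusted p of 0.401, 0.392 and 0.629, and Tpm1 made up 16.1 ± 0.876% of the summed tropomyosin level in TABS and 18.6 ± 0.522% in HA. Levels here are per gene, so splice forms of a tropomyosin gene cannot be told apart.

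Lmod1, leiomodin 1, nucleates actin filaments in smooth muscle, and lies at chr1:135324807-135368065 (ENSMUSG00000048096). It had 7.46, 8.0, 8.29 and 8.24 FPKM in TABS 1 to 4 and 9.46, 9.25, 9.47 and 9.20 FPKM in HA 1 to 4. The HA libraries lay close together and above every TABS library. The means were 7.99 ± 0.379 and 9.35 ± 0.137 FPKM, a ratio of 0.855, and the difference was -0.20 ± 0.04 (limma adjusted p = 0.0249). The call was lost without TABS 1, TABS 2, HA 2 or HA 3, with adjusted p up to 0.0683.

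Cald1, caldesmon, which binds actin and myosin and restrains their interaction, had 128, 116, 59.2 and 122 FPKM in TABS 1 to 4 and 129, 131, 138 and 145 FPKM in HA 1 to 4. TABS 3 lay far below the other 7 libraries. With it the difference was -0.41 ± 0.21 (limma adjusted p = 0.286), and without it -0.15 (0.205). Palld, palladin, an actin-bundling scaffold protein, showed the same library apart, with 14.2, 15.0, 7.93 and 14.7 FPKM in TABS and 16.8, 17.2, 16.4 and 16.3 FPKM in HA. Its difference was -0.38 ± 0.17 (limma adjusted p = 0.207), and -0.18 without TABS 3 (0.0727). TABS 3 was not low throughout: 14 of the tested genes lay below 0.6 times the lowest other library in it, and 13 to 21 did so in each of the other libraries.

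**Figure D3:**
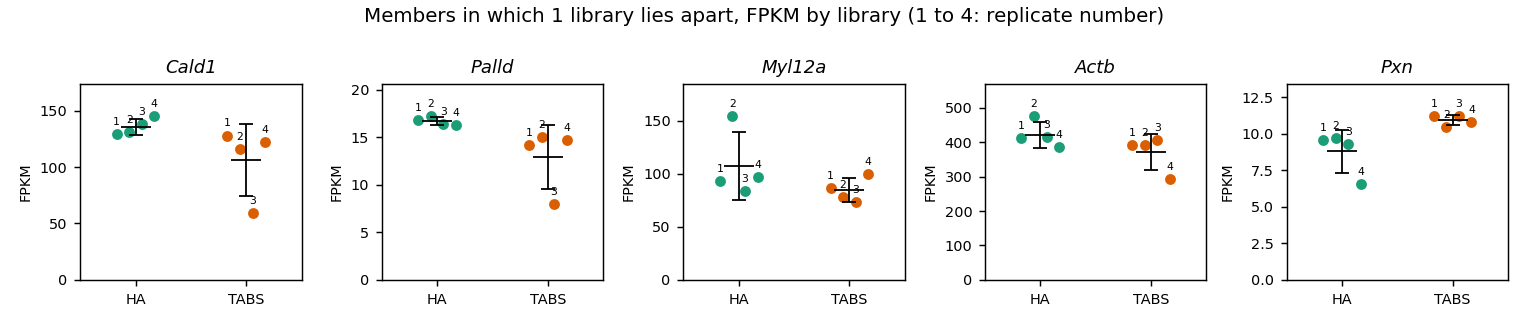
FPKM (linear axis) in each of the 8 libraries for 5 members in which a single library stands apart; numbered points are libraries, and black bars are the group mean and SD (n = 4). TABS 3 holds 59.2 FPKM of Cald1 and 7.93 FPKM of Palld, TABS 4 holds 293 FPKM of Actb, and HA 4 holds 6.57 FPKM of Pxn.

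In the calponin family, which binds along actin filaments, only Tagln passed. Tagln encodes transgelin, or SM22-alpha, an early smooth muscle marker and a standard SRF target, and lies at chr9:45929619-45936058 (ENSMUSG00000032085). Its level was 5.06, 5.08, 5.63 and 5.99 FPKM in TABS 1 to 4 and 7.82, 7.08, 6.91 and 7.34 FPKM in HA 1 to 4. The groups did not overlap. The means were 5.44 ± 0.454 and 7.29 ± 0.398 FPKM, a ratio of 0.746, and the difference was -0.37 ± 0.06 (limma adjusted p = 0.00856), which no left-out library ended. Its exons overlap 2 genes of the other strand, Gm48529 over 1241 bases and Pcsk7 over 108 bases. Of its 100-base stretches, 33.2% also occur in transcripts of these genes. Gm48529 reached 0.364 to 0.736 FPKM, and whether strand was used in the counting is not stated. Reads of the overlaps therefore cannot be assigned to 1 gene with certainty.

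The more abundant members of that family did not pass. Cnn2, calponin 2, had 199, 189, 196 and 194 FPKM in TABS and 230, 209, 217 and 212 FPKM in HA, without overlap, and its difference of -0.16 ± 0.04 had a limma adjusted p of 0.0643 (0.0154 after correction for GC content and length, 0.116 after rescaling to TPM). Cnn3, calponin 3, had 338 ± 37.6 and 364 ± 23.3 FPKM (limma adjusted p = 0.453). Tagln2, transgelin 2, had 83.7 ± 4.21 and 88.7 ± 9.32 FPKM (limma adjusted p = 0.569). Tagln was thus a small part of the transgelin RNA, 6.10 ± 0.417% in TABS and 7.63 ± 0.715% in HA. Cnn1, the smooth muscle calponin, was at most 0.0589 FPKM.

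**Figure D4:**
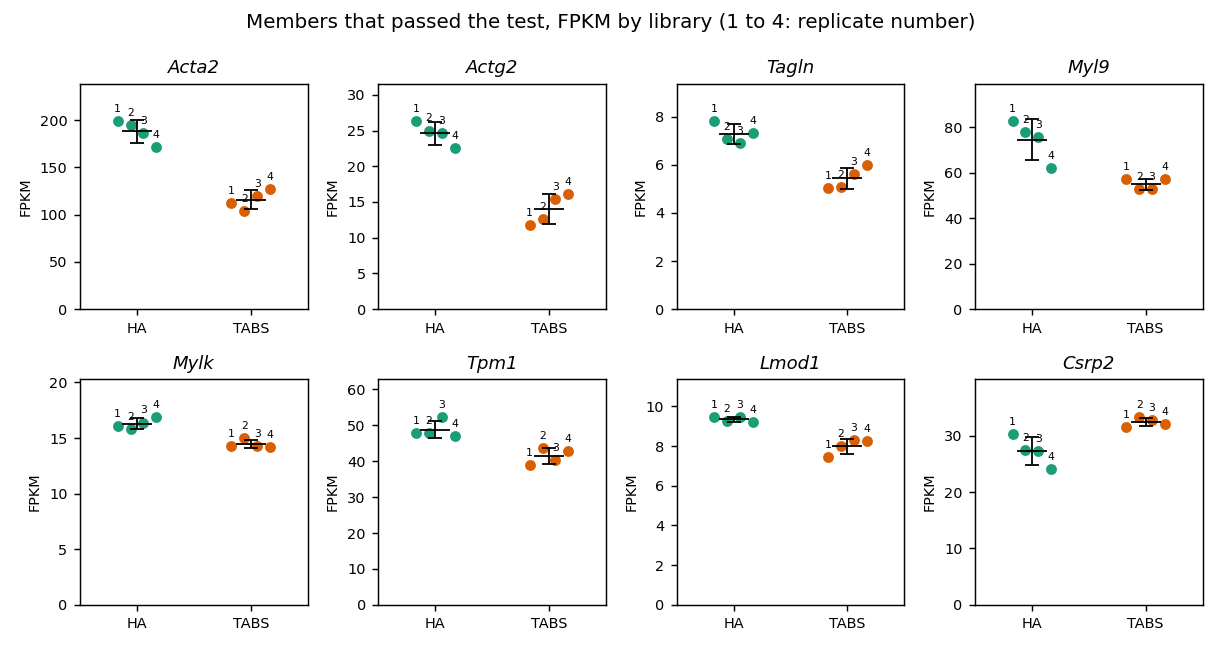
FPKM in each library for the 8 members that passed the test, 1 panel per gene; numbered points are libraries, and black bars are the group mean and SD (n = 4). In 7 panels every TABS library lies below every HA library, and in the Csrp2 panel the order is the opposite.

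Because several members that fell are textbook SRF targets, promoter sequence was read for all members from RefSeq windows on GRCm38.p6 that run from 250 bases before to 50 bases after a gene's start. Of the 47 genes, 41 had a window. Actb, Actg2, Tagln, Pxn, Csrp2 and Myh11 had none. A CArG box, CC then 6 letters of A or T then GG, was searched for on both strands. It was found without mismatch in 9 of the 41 genes (22.0%: Acta1, Actg1, Cnn2, Fhl1, Fhl2, Myl6, Myl9, Srf and Vcl), where 1.81% of the genes with a window held one. With up to 1 mismatch the counts were 20 of 41 (48.8%) and 23.8% of all genes. The 250 bases before the start are shown for 4 members that fell (Acta2, Myl9, Tpm1 and Lmod1) and for Actg1 and Srf, which hold exact boxes and did not pass. Capitals mark the CArG matches, exact or with 1 mismatch, and each sequence reads 5′ to 3′ toward the start of its gene.

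The windows lie at chr19:34255374-34255623 (Acta2, minus strand), chr2:156775214-156775463 (Myl9, plus), chr9:67049214-67049463 (Tpm1, minus), chr1:135324563-135324812 (Lmod1, plus), chr11:120348496-120348745 (Actg1, minus) and chr17:46556163-46556412 (Srf, minus).
Acta2: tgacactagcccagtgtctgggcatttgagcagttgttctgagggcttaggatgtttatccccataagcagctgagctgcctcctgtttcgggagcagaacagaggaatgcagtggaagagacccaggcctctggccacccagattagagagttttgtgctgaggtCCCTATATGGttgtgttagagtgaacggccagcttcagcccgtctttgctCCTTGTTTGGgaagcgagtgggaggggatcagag
Myl9: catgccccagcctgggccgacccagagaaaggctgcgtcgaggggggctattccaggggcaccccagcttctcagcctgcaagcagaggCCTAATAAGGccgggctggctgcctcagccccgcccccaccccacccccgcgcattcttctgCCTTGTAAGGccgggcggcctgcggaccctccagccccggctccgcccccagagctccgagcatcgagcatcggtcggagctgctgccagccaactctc
Tpm1: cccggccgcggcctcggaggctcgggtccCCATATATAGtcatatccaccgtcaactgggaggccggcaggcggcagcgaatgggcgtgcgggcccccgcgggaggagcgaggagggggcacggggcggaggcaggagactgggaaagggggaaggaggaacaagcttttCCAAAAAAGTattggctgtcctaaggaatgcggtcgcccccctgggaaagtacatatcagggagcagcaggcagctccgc
Lmod1: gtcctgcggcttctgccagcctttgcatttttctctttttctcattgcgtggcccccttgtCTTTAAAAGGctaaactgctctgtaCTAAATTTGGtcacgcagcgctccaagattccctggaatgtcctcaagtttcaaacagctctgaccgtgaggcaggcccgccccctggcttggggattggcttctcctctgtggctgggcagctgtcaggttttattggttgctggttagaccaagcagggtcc
Actg1: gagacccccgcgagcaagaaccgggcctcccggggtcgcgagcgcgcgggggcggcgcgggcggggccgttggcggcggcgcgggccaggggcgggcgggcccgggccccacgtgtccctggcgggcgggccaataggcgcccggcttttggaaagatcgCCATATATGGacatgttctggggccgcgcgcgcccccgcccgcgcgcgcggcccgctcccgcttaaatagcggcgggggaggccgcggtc
Srf: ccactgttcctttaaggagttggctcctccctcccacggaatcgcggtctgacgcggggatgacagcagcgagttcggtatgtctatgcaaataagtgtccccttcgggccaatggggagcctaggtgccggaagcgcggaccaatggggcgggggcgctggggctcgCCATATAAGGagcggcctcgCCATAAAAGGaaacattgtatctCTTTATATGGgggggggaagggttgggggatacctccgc

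In Acta2 the matches are CCCTATATGG, 84 bases before the start, and CCTTGTTTGG, 34 bases before it, each with 1 mismatch. Myl9 holds an exact box, CCTAATAAGG, 161 bases before its start and a match with 1 mismatch, CCTTGTAAGG, 99 bases before it. Tpm1 and Lmod1 each hold a pair of matches with 1 mismatch. Actg1 holds the exact box CCATATATGG 90 bases before its start, and Srf, which is known to regulate its own gene, holds CCATATAAGG and CCATAAAAGG at 82 and 62 bases. A letter match is a description and not a binding site, and no binding was measured here.

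Exact boxes were found among members that fell and among those that did not pass. Of the 5 members that fell and had a window, 1 (Myl9) held an exact box and 4 held one with up to 1 mismatch. Of the 31 tested members that did not pass and had a window, 6 (19.4%) held an exact box and 14 (45.2%) one with up to 1 mismatch. The letters GGAATG, the core bound by TEAD factors, were found in 4 of those 5 (Acta2, Lmod1, Mylk and Tpm1) and in 11 of those 31 (35.5%), and over all 41 members in 39.0%, beside 16.6% of all genes with a window. GGGCGG, the Sp1 core, was found in 80.5% of members and 38.2% of all genes, and TATAAA in 24.4% and 15.7%. With 5 genes in the group that fell, these counts describe the windows and compare nothing.

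None of the 5 tested crosslinkers, which bundle actin filaments or tie them to the membrane, passed. Flna, filamin A, was the most abundant of them, with 139 ± 4.14 FPKM in TABS and 133 ± 3.26 FPKM in HA. Flnc, filamin C, had 54.3 ± 0.58 and 51.1 ± 2.61 FPKM. The alpha-actinins, which space the filaments of stress fibres, were at 49.7 ± 2.08 and 48.9 ± 1.41 FPKM for Actn1 and 58.3 ± 2.12 and 55.4 ± 4.09 FPKM for Actn4. Apart from Palld, all of these estimates were at or above 0, from 0.02 for Actn1 to 0.09 for Flnc, though after correction for GC content and length Actn1 (-0.02) and Flna (-0.01) were below 0 and Flnc was at 0.00. Synpo2, a filamin-binding protein of muscle Z-discs, ranged from 0.413 to 0.661 FPKM and was not tested.

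In the group of focal adhesion and LIM proteins, the 1 gene that passed encodes a LIM protein, and it rose. Csrp2 encodes a cysteine-rich LIM-only protein of smooth muscle and mesenchymal cells that binds alpha-actinin and can act with SRF, and lies at chr10:110919789-110939622 (ENSMUSG00000020186). It had 31.6, 33.3, 32.7 and 32.0 FPKM in TABS 1 to 4 and 30.3, 27.4, 27.2 and 24.1 FPKM in HA 1 to 4. Each TABS library was above each HA library, by a narrow gap at HA 1. The means of 32.4 ± 0.748 and 27.3 ± 2.51 FPKM gave a ratio of 1.19 and a difference of 0.25 ± 0.06 (limma adjusted p = 0.0476). This call sat at the threshold: it held among single left-out libraries only when the one left out was HA 1, the others giving adjusted p up to 0.113, median-of-ratios scaling gave 0.0647, and no filter on low levels gave 0.109. Its relative Csrp1 had 97.0 ± 5.70 and 96.4 ± 8.31 FPKM and did not pass.

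Of the proteins that link integrins to actin, Tln1 (talin 1) had 56.5, 57.5, 57.6 and 58.1 FPKM in TABS and 55.2, 53.7, 50.4 and 50.6 FPKM in HA. The groups did not overlap, and the difference of 0.13 ± 0.04 did not pass (limma adjusted p = 0.0962). It was 0.17 and passed after rescaling to TPM (0.0359), and was 0.04 after correction for GC content and length (0.474). Pxn, paxillin, had 11.2, 10.5, 11.2 and 10.8 FPKM in TABS and 9.60, 9.71, 9.32 and 6.57 FPKM in HA. HA 4 was far below the rest, and the difference was 0.30 ± 0.10 with it (limma adjusted p = 0.122) and 0.18 without it (0.0501). Vcl, vinculin, had 32.3 ± 1.0 and 30.4 ± 1.38 FPKM (0.09, limma adjusted p = 0.268, and 0.04 after correction for GC content and length), and its exons overlap those of Ap3m1 over 2090 bases. Zyx, zyxin, a sensor of strained stress fibres, had 39.6 ± 5.33 and 38.5 ± 2.95 FPKM and did not pass (limma adjusted p = 0.872).

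Fhl2, a LIM-only protein that binds SRF, had 29.5, 30.5, 33.7 and 30.8 FPKM in TABS and 26.0, 29.3, 27.6 and 29.0 FPKM in HA. Its groups were just apart, and the difference of 0.15 ± 0.05 did not pass (limma adjusted p = 0.132). Fhl1 ranged from 0.166 to 0.25 FPKM. The PDZ and LIM proteins, which bind alpha-actinin, did not pass: the differences were -0.03 for Pdlim1, -0.11 for Pdlim5 and 0.01 for Pdlim7. Lpp, a relative of zyxin, had 6.91 ± 0.484 and 7.33 ± 0.728 FPKM and did not pass. In all, 8 of the 11 tested genes of adhesions and LIM proteins had a positive estimate, of which Zyx, Csrp1 and Pdlim7 turned negative after correction for GC content and length. All 4 tested calponin-family genes had a negative estimate, as had all 4 tested actins except Actg1 under quantile normalisation (0.01). Over all tested genes 48.0% of estimates were negative.

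Srf itself did not pass. It had 17.4, 16.5, 17.8 and 17.6 FPKM in TABS and 17.9, 18.7, 18.2 and 16.9 FPKM in HA, overlapping groups with a difference of -0.05 ± 0.04 (limma adjusted p = 0.555). Cfl1, cofilin 1, which severs actin filaments, had 289 ± 10.9 and 289 ± 16.8 FPKM. Pfn1, profilin 1, which feeds monomers to growing filaments, had 193 ± 8.11 and 197 ± 20.6 FPKM. Vim, vimentin, the intermediate filament of mesenchymal cells, ran from 440 to 464 FPKM in TABS and from 430 to 469 FPKM in HA, and Des, its muscle counterpart desmin, ranged from 0.313 to 0.464 FPKM. Cfl1, Pfn1 and Vim had overlapping groups and did not pass, and Des was not tested.

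Members that fell were found at low and at high levels. The 7 members that fell had mean levels over all libraries from 6.36 FPKM for Tagln to 152 FPKM for Acta2, and members above 200 FPKM (Actg1, Vim, Actb, Cnn3, Cfl1, Myl6 and Cnn2) did not pass. Low and middle levels also held members near 0, such as Pdlim7 at 5.70 FPKM and Myh10 at 10.7 FPKM.

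**Figure D5:**
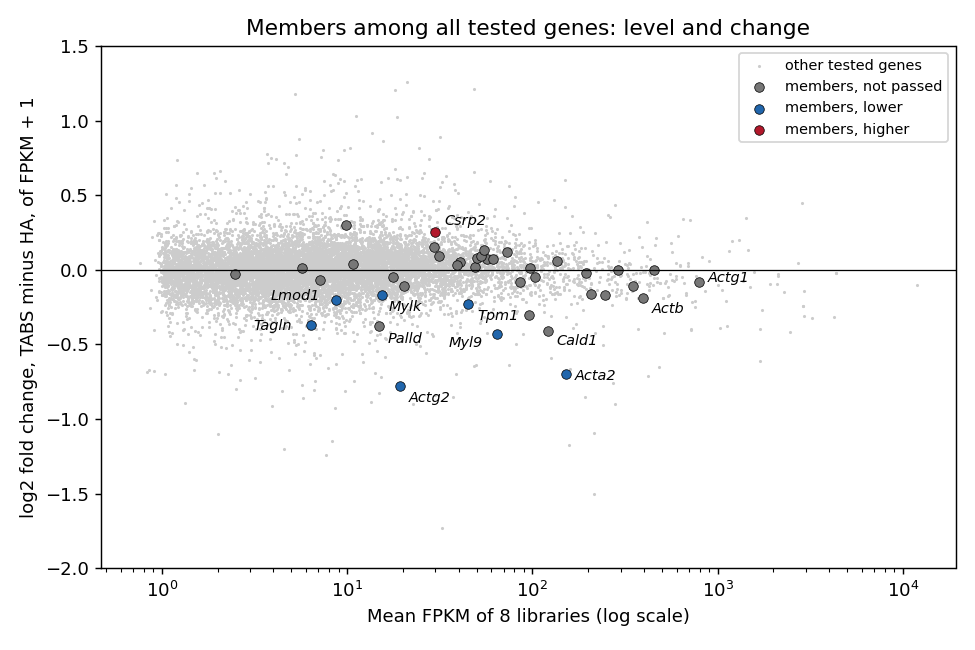
Mean FPKM over the 8 libraries (log axis) against the difference between TABS and HA on the log2(FPKM + 1) scale; large points are the 41 tested members (blue fell, red rose, dark grey did not pass) and small light points are the other tested genes. The members that fell span 6.36 to 152 FPKM. The most abundant members (Actg1, Vim, Actb, Cnn3, Cfl1, Myl6 and Cnn2) did not pass and lie between -0.19 (Actb) and 0.00 (Vim).

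Other genes of the pathway were read from 6 lists with 101 genes in all, of which 88 were tested, 8 rose (9.09%) and 5 fell (5.68%), where 4.49% of all tested genes rose and 2.90% fell. The median difference over the lists was 0.00.

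Neither of the actin-regulated SRF cofactors passed. Mrtfa had 16.4 FPKM in TABS and 16.2 FPKM in HA (limma adjusted p = 0.897), and Mrtfb 4.78 and 4.42 FPKM (0.191). Mrtfa was named after its value was seen. Elk3, a ternary complex factor that binds SRF, rose from 19.4 ± 0.764 FPKM in HA to 22.8 ± 0.806 FPKM in TABS (0.23 ± 0.04, limma adjusted p = 0.0166), the 1 of 6 tested cofactors to pass. Myocd, the muscle cofactor, was listed at 0 in 7 libraries. These are RNA levels, and where the cofactor proteins lay in the cell was not measured.

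Of 28 tested genes of actin nucleation and turnover, 3 rose and 1 fell. Coro1c, a coronin, rose by 0.29 (limma adjusted p = 0.0113) and Wasf2, an activator of branched nucleation, by 0.15 (0.0372). Wasf1, its relative, rose by 0.18 (0.0438) and was named after its value was seen. Tmsb4x, thymosin beta-4, which holds actin monomers, fell from 188 ± 9.22 FPKM in HA to 161 ± 5.50 FPKM in TABS (limma adjusted p = 0.0268). Among 5 tested further contractile muscle genes, Nexn (nexilin) fell, at 1.01 ± 0.251 FPKM in TABS and 1.63 ± 0.216 FPKM in HA (-0.40, limma adjusted p = 0.0415). Tgfb1i1, or Hic-5, at -0.21 (0.0553) and Synpo, synaptopodin, at 0.24 (0.0541) did not pass.

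Of 15 tested further focal adhesion genes, Tln2 (talin 2) rose by 0.26 (limma adjusted p = 0.00893) and Lims1 (PINCH-1) fell by 0.24 (0.0476), while Tns2 (tensin 2) at 0.19 did not pass (0.0701). Of 10 tested other myosins, Myo18a rose by 0.29 (limma adjusted p = 0.0111), and Myo1e at 0.10 (0.119) did not pass. The calls of Tln2, Myo18a and Coro1c held whichever library was left out. Elk3 was lost without TABS 1 (limma adjusted p = 0.0532) or TABS 3 (0.0506), and just held without TABS 2 (0.05 after rounding). Tmsb4x, Nexn, Wasf1, Wasf2 and Lims1 were lost without any of 6 to 8 of the 8 libraries. Tgfb1i1 and Synpo passed under some alternatives, at 0.0291 for Tgfb1i1 after correction for GC content and length and 0.0292 for Synpo after rescaling to TPM.

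Smooth muscle identity was checked on 7 markers, since several members that fell are used as such. Myh11, Cnn1, Des, Myocd and Synpo2 were under 1 FPKM in every library, Smtn (73.9 and 77.5 FPKM) did not pass, and Lmod1 fell. The markers summed to 80.2 to 86.4 FPKM in TABS and 82.3 to 91.8 FPKM in HA, and most of this sum is Smtn. Acta2, Actg2 and Tagln, which fell, are not among these 7 markers. No marker of skeletal muscle, cardiac muscle, endothelium or epithelium reached the level needed for a test. Of 5 macrophage markers, Ptprc, Cd68, Csf1r and Adgre1 were under 1 FPKM and Lyz2 fell, with a summed level of 11.2 to 16.3 FPKM in TABS and 17.9 to 20.1 FPKM in HA. Of 3 chondrocyte markers, Acan was under 1 FPKM, Sox9 (36.5 and 34.8 FPKM in TABS and HA) did not pass, and Col2a1 rose (5.49 ± 0.212 and 4.32 ± 0.523 FPKM, 0.29, limma adjusted p = 0.0393), with a summed level of 40.8 to 43.4 FPKM in TABS and 37.0 to 41.7 FPKM in HA. Of 4 adipocyte markers, Adipoq, Plin1 and Pparg were under 1 FPKM and Fabp4 did not pass, with a summed level of 2.92 to 3.39 FPKM in TABS and 2.62 to 3.39 FPKM in HA. The 8 osteoblast lineage markers were all tested, 4 fell and 1 rose. Of the 8 estimates 7 were negative, and their median was -0.32. Ibsp (14.5 and 50.3 FPKM in TABS and HA, -1.73, limma adjusted p = 1.51e-05), Sp7 (-0.49, 0.00071) and Col1a1 (-0.39, 0.0269) fell. Alpl fell too (0.463 and 1.36 FPKM, -0.68, 0.00267), but it reached 1 FPKM only in HA libraries. It thus entered the test through the group where it was higher. Dmp1 rose (31.6 ± 1.93 and 17.6 ± 2.36 FPKM, 0.82, limma adjusted p = 0.000999), and Runx2, Col1a2 and Bglap did not pass. Their sum, most of which is Col1a1 and Col1a2, was 1581 to 1712 FPKM in TABS and 1804 to 2272 FPKM in HA. The part of these markers in the members' differences was not tested.

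Over all genes, 506 rose and 327 fell, and after rescaling each library to TPM, 915 rose and 239 fell. FPKM summed to 304893.4 to 307263.4 in TABS and 312629.4 to 317439.5 in HA, while the median difference over all tested genes was 0.01. Mitochondrial genes took 10.18 to 12.22% of the sum in TABS and 12.08 to 14.5% in HA. The depth in reads is unknown from FPKM.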

How the data were processed

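RNA of 8 libraries (4 TABS, 4 HA) was measured. The authors deposited 1 table of FPKM values per gene and library. The submitters' processing notes list fastp, STAR, DESeq2 and the build GRCm38, without versions or roles. The program behind the FPKM values, its annotation and its use of strand are not stated there. FPKM are normalised to each library's fragments, so counting precision is unknown and no count test was made.

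Columns were matched to samples through the labels' library names. Of 55335 gene identifiers, 55154 were found in GENCODE mouse M21, which gave symbols and coordinates, and 27134 were 0 in every library. No libraries were identical. Genes with at least 1 FPKM in at least 4 libraries (11280) were tested with limma 3.58.1 in R 4.3.3, with a variance trend on log2(FPKM + 1), two-sided, with Benjamini-Hochberg adjustment over all tested genes. The fit was tested on simulated data. Alternatives changed the pseudocount (0.1), the filter (none, 5 FPKM), the scaling (TPM, median-of-ratios, quantile), the variances (robust), the replicate block and a correction for GC content and length, and left out each library. The sum with Actg1 pseudogenes was added after seeing the data. Of Myl12b's identifiers, ENSMUSG00000034868 was used.

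The members and the other lists were chosen with earlier results of these data known. Every member is accounted for, those past the threshold, the actins and those compared in the text are given per library, and up to 3 genes of each other list were named by smallest adjusted p. Wasf1 and Mrtfa were named after their values were seen. The members of 1 of those lists and 1 further gene are not reported here. Protein sequences were not used here.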

Additional observations from a re-analysis of the deposited data

Results flagged for a closer look

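In groups of 4 libraries, a library was singled out where its gap to the nearest other library, divided by the range of its group, was above Dixon's critical value. Chance gives about 1 in 20 groups, and 7 of the 124 groups checked (members and the other named genes) were singled out. TABS 3 held 59.2 FPKM of Cald1 and 7.93 FPKM of Palld, each the lowest of its group. TABS 4 held 293 FPKM of Actb, the lowest of its group, and TABS 1 held 53.4 FPKM of Flnc, the lowest of a narrow group. HA 4 held 887 FPKM of Actg1, the highest of its group, and 6.57 FPKM of Pxn, the lowest. HA 3 held 52.3 FPKM of Tpm1, the highest of its group. Of these genes only Tpm1 passed the test with all 8 libraries, and without HA 3 it did not.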

How the results depend on the processing

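Of the 8 members called, Acta2 and Actg2 held under all alternatives run, and Tagln under all but the replicate block. Counts of genes that rose and fell over all tested genes were 506 and 327. They became 915 and 239 after rescaling to TPM. Without a filter 347 rose and 195 fell, and leaving out 1 library gave 239 to 425 and 167 to 279. The 1 member that rose became 3 after rescaling to TPM, 0 without a filter and 0 under median-of-ratios scaling, and 0 to 1 with 1 library left out. The 7 that fell became 4 to 7 with 1 library left out. In the other lists, 8 rose and 5 fell. After rescaling to TPM 14 rose and 2 fell, without a filter 2 fell, with correction for GC content and length 5 rose, and with 1 library left out 3 to 6 rose and 1 to 3 fell. The cause was not tested in any of these.

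In the fit with a replicate block, 136 genes rose and 94 fell, 0 members rose and 2 fell, and in the other lists 0 rose and 1 fell. The block with correction for GC content and length gave 152 and 153 over all genes, 0 members that rose, and 0 and 1 in the other lists. Libraries with the same number deviated from their group means with correlations of 0.105, 0.05, -0.104 and -0.058 across genes. Not every library correlated best with its own number. The labels do not say whether a shared number marks a shared culture or day, and these correlations cannot settle it.

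Adding the Actg1 pseudogenes to the actin sum gave, in TABS and HA, 7.14 and 10.4% for Acta2, 0.864 and 1.36% for Actg2, 22.9 and 23.4% for Actb, and 69.1 and 64.8% for Actg1, since the sum grew. With 1 library left out the shares in TABS and HA ran from 8.74 to 9.41% and 12.7 to 13.4% (Acta2), 1.04 to 1.16% and 1.65 to 1.75% (Actg2), 28.5 to 31.0% and 28.1 to 30.0% (Actb), and 59.2 to 61.4% and 54.9 to 57.3% (Actg1).

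Signs turned for 12 members and Mrtfa, none of them called in any setting where the sign turned. With correction for GC content and length, with or without the block, Actn1 was at -0.02, Cfl1 -0.03, Csrp1 -0.01, Flna -0.01, Flnc 0.00, Myh10 -0.03, Pdlim1 0.04, Pdlim7 -0.06, Vim 0.00, Zyx -0.03 and Mrtfa -0.06. Under quantile normalisation Actg1 was at 0.01, Pfn1 0.04, Vim 0.05 and Mrtfa -0.01. After rescaling to TPM Pfn1 was at 0.02 and Vim 0.04, and under median-of-ratios scaling Cfl1 was at 0.00. With 1 library left out, the values ran from -0.03 to 0.03 for Cfl1 and Pdlim7, -0.03 to 0.07 for Csrp1, -0.09 to 0.00 for Pdlim1, -0.09 to 0.03 for Pfn1, -0.02 to 0.02 for Vim, -0.02 to 0.09 for Zyx and -0.01 to 0.03 for Mrtfa. Read depth is unknown from FPKM, so what counting error adds at low levels could not be given.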
